A study of Mus musculus with 9 samples.

Results

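The genes described here are 10 signalling genes of the platelet lineage: the heterotrimeric G protein subunits Gna13, Gnaq, Gnai2, Gnaz and Gng11, and the regulators of G protein signalling Rgs18, Rgs10, Rgs1, Rgs2 and Rgs16. They were chosen by name, and every probe set annotated to exactly 1 of these symbols was taken, which gave 20 probe sets for 10 of the 12393 genes that the array represents with a single-symbol probe set. Of the 20 probe sets, 17 passed a filter on low signal, and 9 of the 10 genes could be tested. Rgs16 was below the filter on every array and has levels only.

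A heterotrimeric G protein consists of an alpha subunit that binds GTP and a beta-gamma pair, and it passes on the signal of a receptor for as long as the alpha subunit holds GTP. RGS proteins speed up the hydrolysis of that GTP and so shorten the signal. In platelets, receptors for thrombin, ADP and thromboxane work through Gq, which raises calcium through phospholipase C beta, through G13, which acts on the small GTPase RhoA and cell shape, and through the Gi family, which lowers cyclic AMP.

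The study followed the maturation of mouse megakaryocytes, the cells that shed platelets, in culture. Cells from bone marrow or fetal liver were grown with thrombopoietin, collected on days 3, 4 and 6 and sorted for high surface CD41 and by forward scatter, a measure of cell size. Total RNA was measured on MOE430A oligonucleotide arrays at 4 stages: MKP, MK3 and MK4, each on 2 arrays, and MK6, on 3. For each array, the sources used here give no strain, genotype, age or choice between marrow and liver, and they tie no stage to a culture day.

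Sorted cultures are enriched for a stage rather than pure, and a lower signal from fewer cells of a type cannot be told apart from less RNA per cell. The labels do not say which arrays came from separate cultures, so the p-values below measure only the spread between these arrays, which may be technical. The deposited signal had a trimmed mean per array between 102.3 and 221.2, and each array was scaled to a common trimmed mean of 161. The 3'/5' ratio of the beta-actin control, which rises as RNA degrades, lay between 0.957 and 1.094 on the 6 arrays of the earlier stages and was 1.494, 1.327 and 3.206 on MK6 replicates 1, 2 and 3. The sorting marker Itga2b, which encodes CD41, had a scaled signal of 1301 and 979 on the MKP arrays, 977 and 2749 on MK3, 3422 and 2531 on MK4, and 3394, 3678 and 2856 on MK6. All 10 of the megakaryocyte markers on the array passed the filter, but so did all 12 neutrophil and granulocyte markers, whose summed scaled signal ran from 39782 to 48864 at MKP and from 6719 to 29272 at MK6, and all 14 monocyte and macrophage markers.

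MKP and MK6 are the first and the last of the named stages. Rgs1 and Rgs10 rose, and no member fell, in limma's test with Benjamini-Hochberg adjustment over 9382 genes at an adjusted p below 0.05. These were 2 of the 9 members tested, against 5.7% of all genes called in either direction with 2.76% called higher and 2.94% lower. The median difference of the 9 members was 0.57 on the log2(scaled signal + pseudocount) scale, with a pseudocount of 15.17, and that of all genes tested was 0.13. On this scale a fold change of a low gene is understated. With no scaling of the arrays the genes called split into 56 higher and 144 lower, against 259 and 276, and the median of all genes moved to -0.20, so differences are relative to the scaling. Both members' calls ended when either MKP array was left out, where 3 and 22 genes in all were called. The beta-actin ratio was higher on all 3 MK6 arrays than on any other array. With its log2 value as a covariate the differences were 2.78 for Rgs1 and 1.52 for Rgs10, and neither was called (limma, adjusted p = 0.31 and 0.30). In that fit 0 of all 9382 genes were called, so the lost calls are not particular to these members.

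**Figure D1:**
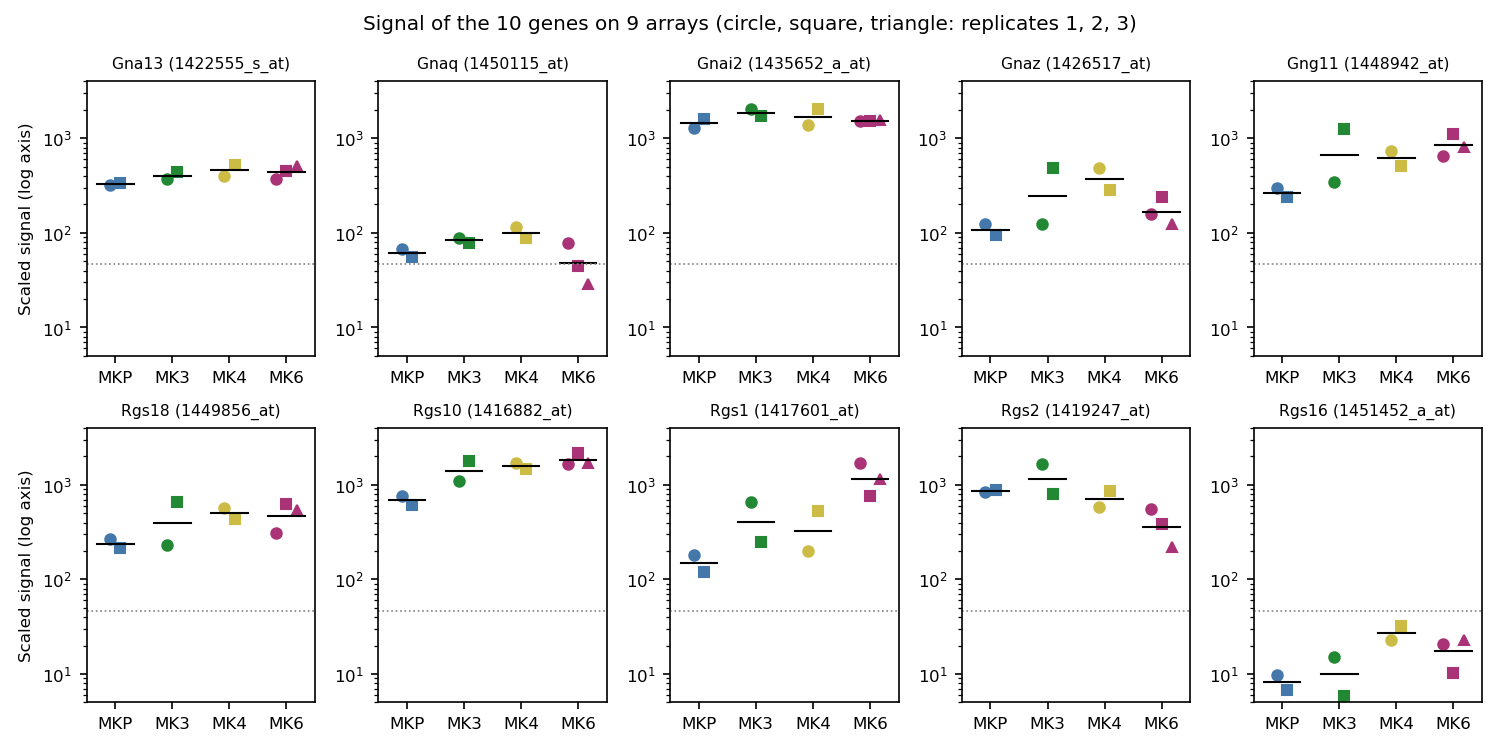
Scaled signal, on a log axis, of 1 probe set for each of the 10 genes on the 9 arrays, by stage; each point is an array, the short lines are stage means taken on the log2(signal + pseudocount) scale, and the dotted line is the filter at a scaled signal of 46.73. Rgs1 and Rgs10 lie higher on all MK6 arrays than on both MKP arrays, Rgs2 lies lower, and all Rgs16 points are under the filter.

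Gnaq encodes the alpha subunit that activates phospholipase C beta. Its scaled signal was 68.0 and 55.7 on the MKP arrays, 89.1 and 78.6 on MK3, 115 and 88.3 on MK4, and 78.3, 44.5 and 29.0 on MK6. The MK3 and MK4 arrays were all above the MKP arrays, and the MK6 arrays overlapped MKP, with replicates 2 and 3 under the filter. The difference of MK6 from MKP was -0.29 ± 0.34 (SE; limma, adjusted p = 0.62), and that from MK4 was -0.89 ± 0.34 (limma, adjusted p = 0.40). The sign of the difference from MKP depended on the MK6 arrays used: it was 0.28 with replicates 2 and 3 left out and -0.36 with replicates 1 and 3 left out. It was 0.26 with the beta-actin ratio in the fit.

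Gnai2 encodes an alpha subunit that inhibits adenylyl cyclase and serves the ADP receptor P2Y12. The probe set with the higher mean, 1435652_a_at, gave 1275 and 1624 at MKP, 2028 and 1715 at MK3, 1377 and 2036 at MK4, and 1528, 1518 and 1549 at MK6. Both MK3 arrays lay above the MKP and MK6 arrays, which overlapped, and the MK4 arrays lay apart, 1 within the MKP range and 1 above every other array. The difference of MK6 from MKP was 0.089 ± 0.25 (SE; limma, adjusted p = 0.85), and it turned negative, at -0.039, with a common median and, at -0.27, with no scaling. The second Gnai2 probe set, 1419449_a_at, gave 1684 and 1170 at MKP, 2347 and 1370 at MK3, 1352 and 1111 at MK4, and 980, 854 and 691 at MK6. Its MK6 arrays were all below its MKP arrays, and the difference was -0.74 ± 0.30 in the fit of each probe set by itself (limma, adjusted p = 0.15), so the probe sets of this gene do not give 1 direction.

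Gnaz encodes the alpha subunit of Gz, a member of the Gi family found in platelets and neurons. Its scaled signal was 123 and 94.2 at MKP, 123 and 487 at MK3, 484 and 282 at MK4, and 157, 241 and 123 at MK6. The highest arrays were MK3 replicate 2 and MK4 replicate 1, and MK3 replicate 1 was at the MKP level. MK6 replicate 3 lay above MKP replicate 1 only in the decimals. MK6 was 0.57 ± 0.48 above MKP (SE; limma, adjusted p = 0.48) and -1.07 ± 0.48 from MK4 (limma, adjusted p = 0.47). Of the 9 genes tested, Gnaz had its highest stage mean at MK4, as did Gna13, Gnaq and Rgs18.

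Gna13 encodes the alpha subunit that activates RhoA exchange factors and is needed for platelet shape change. It had 6 probe sets that passed the filter, the most of any member. The probe set with the highest mean, 1422555_s_at, gave 319 and 342 at MKP, 374 and 436 at MK3, 404 and 524 at MK4, and 372, 447 and 505 at MK6. All later arrays lay above both MKP arrays, and the difference of MK6 from MKP was 0.39 ± 0.23 (SE; limma, adjusted p = 0.31). The mean over the gene's probe sets gave -0.035 instead.

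Other Gna13 probe sets had differences of opposite sign. Probe set 1430295_at gave 65.4 and 77.6 at MKP, 122 and 106 at MK3, 122 and 171 at MK4, and 257, 197 and 238 at MK6. Its MK3 and MK4 arrays overlapped and lay between the MKP and the MK6 arrays, and MK6 was 1.50 ± 0.25 above MKP (SE; limma on each probe set, adjusted p = 0.0106). Probe set 1453470_a_at gave 137 and 99.96 at MKP, 85.1 and 92.9 at MK3, 110 and 81.2 at MK4, and 27.4, 30.6 and 11.5 at MK6. It was under the filter on all 3 MK6 arrays and above it on the other 6 arrays, with a measured difference of -1.82 ± 0.32 (limma on each probe set, adjusted p = 0.0124). It passed the filter only through the stages where it is high, so the size of this difference is not well measured and the call lends no support to the count of probe sets. These calls ended without MKP replicate 1, without MKP replicate 2, without MK6 replicates 1 and 3, and with the beta-actin covariate, and that of 1430295_at also with no scaling.

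The remaining Gna13 probe sets were not called. MK6 differed from MKP by -0.78 ± 0.26 for 1422556_at (limma on each probe set, adjusted p = 0.0981), by 0.37 for 1450656_at and by 0.13 for 1460317_s_at. The last of these changed its sign to -0.20 with no scaling and to -0.023 with array weights. Counted over probe sets, 4 of the 17 members' probe sets were called between MK6 and MKP, 3 higher and 1 lower, against 6.91% of all 14516 probe sets tested, with 2.64% higher and 4.27% lower. Without 1453470_a_at, 3 of 16 were called. Where in the transcript each probe set lies was not analysed here.

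**Figure D2:**
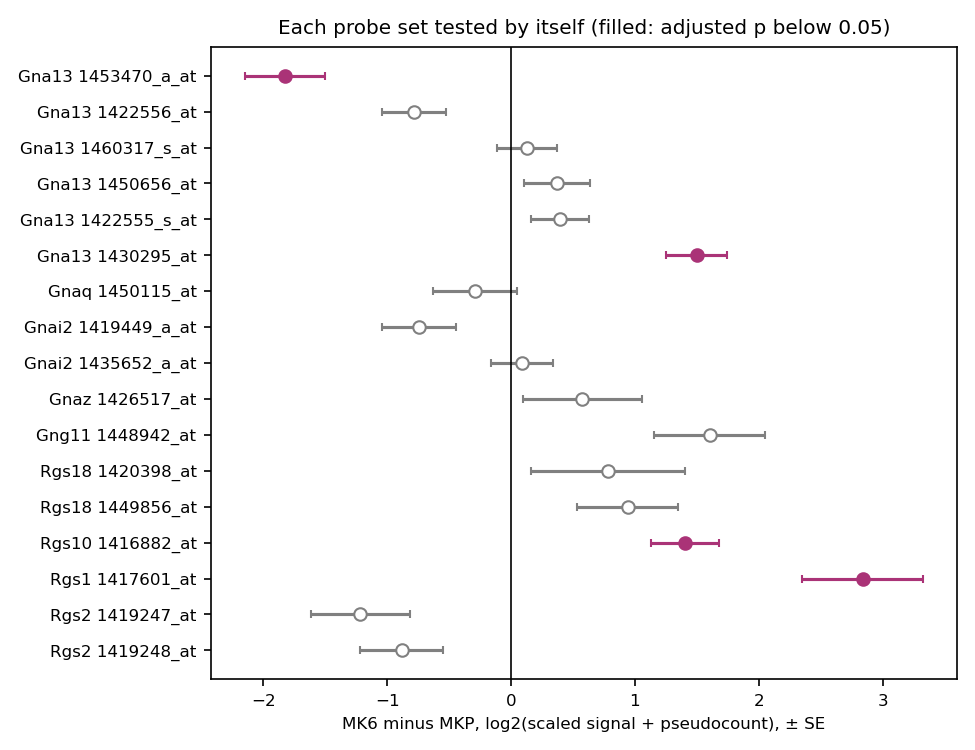
Difference of MK6 from MKP (log2 of scaled signal plus pseudocount, with its standard error from limma) for the 17 probe sets of the members that passed the filter; filled points have an adjusted p below 0.05. The 6 Gna13 probe sets range from -1.82 to 1.50, with a called probe set at each end; the lowest was under the filter on all MK6 arrays.

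Gng11 encodes a gamma subunit of the farnesylated kind. Its scaled signal was 300.0 and 239 at MKP, 346 and 1255 at MK3, 737 and 512 at MK4, and 659, 1125 and 816 at MK6. All 7 later arrays lay above both MKP arrays, and MK3 replicate 2 was the highest array of all. The difference of MK6 from MKP was 1.61 ± 0.45 (SE), which did not pass the test over all genes (limma, adjusted p = 0.0600). It passed with array weights, with the MKP and MK6 arrays fitted alone, and without either MK3 array, with adjusted p over all alternatives from 0.00412 to 0.47.

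Rgs18 encodes a regulator abundant in megakaryocytes and platelets that acts on Gi and Gq subunits. Probe set 1449856_at gave 265 and 215 at MKP, 233 and 658 at MK3, 568 and 441 at MK4, and 309.7, 622 and 547 at MK6. Every MK4 and MK6 array lay above both MKP arrays, while the MK3 arrays stood apart, 1 at the MKP level and 1 the highest of all. MK6 was 0.94 ± 0.41 above MKP (SE; limma, adjusted p = 0.19). The second probe set, 1420398_at, gave 131 and 345 at MKP, 136 and 756 at MK3, 589 and 644 at MK4, and 223, 597 and 407 at MK6. Its MKP and MK6 arrays overlapped, and the difference was 0.78 ± 0.62 (limma on each probe set, adjusted p = 0.45).

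Rgs10 encodes a small regulator that acts on Gi-family subunits and is made in platelets and in several leukocytes. Its scaled signal was 761 and 619 at MKP, 1099.9 and 1810.3 at MK3, 1686 and 1466 at MK4, and 1666, 2182 and 1713 at MK6. All later arrays lay above both MKP arrays, while MK3 replicate 2 lay within the MK6 range and MK4 overlapped MK6. Rgs10 rose by 1.40 ± 0.27 from MKP to MK6 (SE; limma, adjusted p = 0.0170). The call ended in 6 of 25 alternatives: without MKP replicate 1, without MKP replicate 2, without MK6 replicates 1 and 3, with the beta-actin covariate, with a common median and with no scaling. The difference stayed positive in all 25, from 1.04 to 1.65, and the adjusted p ranged from 0.00086 to 0.38.

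Rgs1 encodes a regulator known from activated lymphocytes and other leukocytes, where it dampens chemokine receptor signalling. Its scaled signal was 181 and 119 at MKP, 655 and 252 at MK3, 199 and 536 at MK4, and 1714, 769 and 1146 at MK6. All 3 MK6 arrays lay above every other array, and the replicates of MK3 and of MK4 were wide apart. Rgs1 rose by 2.84 ± 0.49 from MKP to MK6 (SE; limma, adjusted p = 0.0111), the largest difference among the 9 members tested, and MK6 was 1.76 ± 0.49 above MK4 (limma, adjusted p = 0.22). The MKP to MK6 call ended without MKP replicate 1, without MKP replicate 2, without MK6 replicates 1 and 3, and with the beta-actin covariate. The difference ranged from 2.27 to 3.41 over the alternatives and the adjusted p from 0.00037 to 0.31.

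Rgs2 encodes a regulator that acts preferentially on Gq. Probe set 1419247_at gave 840.1 and 875 at MKP, 1664 and 793 at MK3, 584 and 871 at MK4, and 552, 385 and 218 at MK6. All MK6 arrays lay below every array of the other stages, and MK3 replicate 1 was the highest array. The difference of MK6 from MKP was -1.22 ± 0.40 (SE), which did not pass the test (limma, adjusted p = 0.0989). The second probe set, 1419248_at, gave 311 and 445 at MKP, 653 and 446 at MK3, 254 and 514 at MK4, and 226, 222 and 148 at MK6, with a difference of -0.88 ± 0.33 (limma on each probe set, adjusted p = 0.13). Without MK6 replicate 1 Rgs2 was called, at -1.51 (limma, adjusted p = 0.0405), where 6.45% of all genes were called. Array weights also gave a call, where 27.5% of all genes were called. Its adjusted p ranged from 0.00164 to 0.77 over the alternatives.

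Rgs16 encodes a regulator that is induced in activated lymphocytes and monocytes. Its 3 probe sets had scaled signals from 1.21 to 31.9, under the filter of 46.73 on all 9 arrays, so no difference was tested.

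Separated groups were counted with each gene as its probe set with the highest mean. The MK6 arrays lay all above the MKP arrays for Gna13, Gnaz, Gng11, Rgs18, Rgs10 and Rgs1. These were 6 of 9 members, where 24.5% of all genes tested showed this. On that basis MK6 lay all below for Rgs2 alone, where 18.8% of all genes did, and Gnaq and Gnai2 overlapped. Other probe sets of these genes differed. MK6 lay all below MKP for Gna13 1422556_at and 1453470_a_at, Gnai2 1419449_a_at and Rgs2 1419248_at. It lay all above for Gna13 1430295_at and 1450656_at, and overlapped for Gna13 1460317_s_at and Rgs18 1420398_at.

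The promoters of Rgs10, which rose, and of Rgs2, whose MK6 signal lay lowest, are shown because they are the members with an entry in the RefSeq promoter table with the largest differences between MKP and MK6 in the fit over genes. Of the 10 members, 5 had an entry, namely Gna13, Gnaq, Rgs10, Rgs2 and Rgs16. Each sequence is the 250 bases before the RefSeq gene start in GRCm38.p6, written 5′ to 3′ on the strand of the gene, with the minus strand for both, at chr7:128418173-128418422 for Rgs10 and chr1:144004150-144004399 for Rgs2. Capitals mark the GC box GGGCGG or its reverse complement CCGCCC.
Rgs10: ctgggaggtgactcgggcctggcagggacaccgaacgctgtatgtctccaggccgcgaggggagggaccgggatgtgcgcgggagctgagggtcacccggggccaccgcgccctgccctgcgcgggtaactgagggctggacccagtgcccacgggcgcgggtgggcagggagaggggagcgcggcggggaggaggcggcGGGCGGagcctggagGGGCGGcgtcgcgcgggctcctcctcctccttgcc
Rgs2: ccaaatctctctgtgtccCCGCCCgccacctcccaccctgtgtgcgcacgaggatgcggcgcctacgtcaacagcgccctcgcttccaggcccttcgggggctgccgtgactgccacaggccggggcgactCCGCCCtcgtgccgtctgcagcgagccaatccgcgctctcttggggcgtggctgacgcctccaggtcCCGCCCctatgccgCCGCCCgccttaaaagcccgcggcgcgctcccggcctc
The Rgs10 window held 2 GC boxes, 27 CpG sites and 76.4% G and C, and the Rgs2 window held 4 GC boxes, 30 CpG sites and 72.4%, against a median of 52.4% over 32851 promoter windows of this length. A GC box was present in 32.7% of those windows. The GATA motif AGATAA and the NF-E2 and AP-1 core TGANTCA, searched on both strands, were in none of the 5 members' windows and in 9.99% and 6.75% of all windows. A match or its absence in these bases says nothing on which factors bind.

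Rgs2, Rgs13, Rgs1, Rgs21 and Rgs18 follow each other on chromosome 1 in the RefSeq gene table, and Rgs16 lies beside Rgs8 on the same chromosome. The 3 tested members of that run differed in direction: Rgs1 and Rgs18 gave 2.84 and 0.94 between MKP and MK6, and Rgs2 gave -1.22. Over the 9 arrays, Rgs1 and Rgs2 had a Pearson correlation of -0.42.

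The single steps gave no called member. Between MKP and MK3, 0 of 9 members passed, where 0.0533% of all genes tested did, and 3 members had p below 0.05 before adjustment, as did 9.91% of genes. These 3 were Rgs10 at 1.02 ± 0.29 (limma, adjusted p = 0.21), Gng11 at 1.26 ± 0.49 (limma, adjusted p = 0.40) and Rgs1 at 1.38 ± 0.53 (limma, adjusted p = 0.40). Gnaz, at 1.10 ± 0.52, was not among them. Between MK3 and MK4, 0 of 9 passed, against 0.0107% of genes, and no member had p below 0.05 before adjustment in limma, where 3.6% of genes did. Between MK4 and MK6, 0 of 9 passed, against 0.0213%, and 4 had p below 0.05 before adjustment, as did 10.4% of genes. Rgs2 was at -0.96 ± 0.40 in this step (limma, adjusted p = 0.44). With array weights, 3 members and 5.52% of all genes were called in it. The F test over the 3 steps called Rgs1 alone (F = 12.1; limma, adjusted p = 0.0417), 1 of 9 against 2.79% of genes, and Rgs10 had an adjusted p of 0.0590. Over probe sets it called 3 of 17, against 2.59%, namely that of Rgs1 and the Gna13 probe sets 1430295_at and 1453470_a_at (limma, adjusted p = 0.0385 and 0.0335); without 1453470_a_at it called 2 of 16.

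The 2 MK3 arrays differed by over 1 on the log2 scale in 5 of the 9 members tested, where 8.16% of all genes did; the limit of 1 was set after the values were seen. On the log2 scale, replicate 2 minus replicate 1 was 1.86 for Gnaz, 1.81 for Gng11, 1.44 for Rgs18 and 0.71 for Rgs10, at percentiles 99.5, 99.4, 98.6 and 93.1 of all genes tested. It was -1.33 for Rgs1 and -1.06 for Rgs2, at percentiles 1.82 and 4, and between -0.24 and 0.22 for Gna13, Gnaq and Gnai2. Over all genes the SD of this difference was 0.58, against 0.37 between the MKP arrays and 0.48 between the MK4 arrays. Correlations were also taken across genes, which are not independent replicates. MK3 replicate 2 correlated with the MK4 arrays at r = 0.946 and 0.955, and MK3 replicate 1 at 0.906 and 0.925. With the MKP arrays, MK3 replicate 2 was at 0.922 and 0.931, and MK3 replicate 1 at 0.901 and 0.892. Replicate 2 was thus nearer to both stages, so these values do not order the MK3 arrays by stage.

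**Figure D3:**
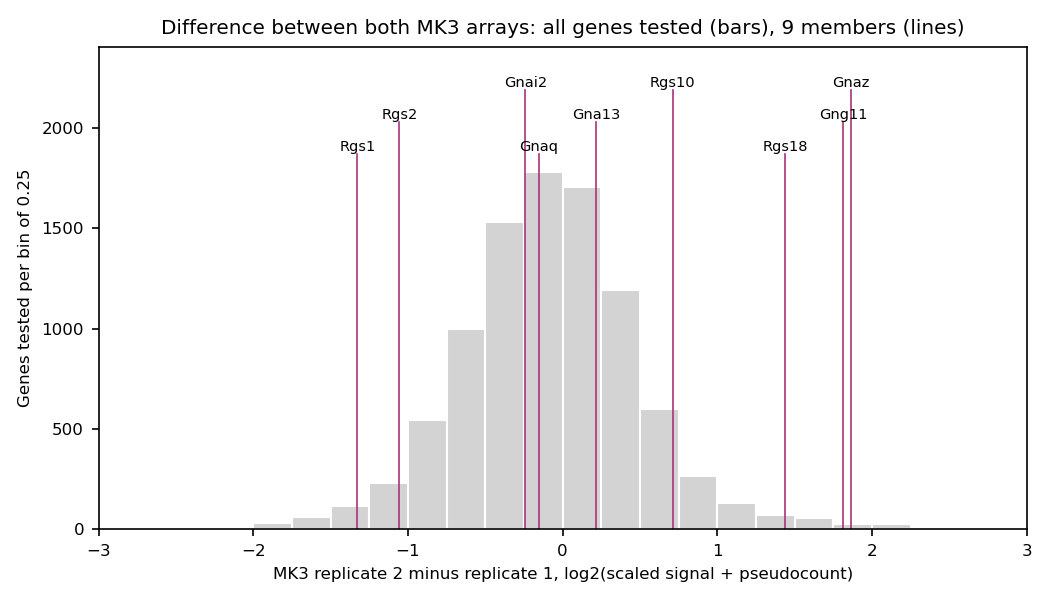
Difference between the 2 MK3 arrays (replicate 2 minus replicate 1, log2 of scaled signal plus pseudocount); the bars count all genes tested in bins of 0.25 and the lines mark the 9 members. Gnaz, Gng11 and Rgs18 lie in the right tail at 1.86, 1.81 and 1.44, and Rgs1 and Rgs2 in the left tail at -1.33 and -1.06.

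Cell type markers differed between the MK3 arrays too. The mean log2 signal of the 10 megakaryocyte markers was 9.35 on MK3 replicate 1 and 10.85 on replicate 2, against 9.37 and 9.28 on the MKP arrays, 10.80 and 10.44 on MK4, and 9.71, 10.10 and 9.30 on MK6. Their summed scaled signal ran from 9647 to 10187 at MKP, from 10152 to 22872 at MK3, from 18292 to 22530 at MK4 and from 16879 to 20118 at MK6. The mean of the 14 monocyte and macrophage markers was 9.90 and 9.01 on MK3 replicates 1 and 2, against 8.57 and 8.47 on MKP, 8.77 and 9.44 on MK4, and 9.28, 8.56 and 8.48 on MK6. Their sum ran from 11678 to 14440 at MKP, from 16160 to 32000 at MK3, from 14186 to 19720 at MK4 and from 13933 to 32029 at MK6. Other lists were also higher on MK3 replicate 1 than on replicate 2, with means of 6.79 and 6.03 for 5 dendritic cell markers and of 7.71 and 6.98 for 7 mast cell and basophil markers, so the difference was not limited to monocyte and macrophage markers. No marker of the megakaryocyte or monocyte and macrophage list was at 0, and all passed the filter.

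Gnaz, Gng11, Rgs18 and Rgs10 had their highest array of each stage where the megakaryocyte markers had their highest mean log2 signal, in 4 of 4 stages. This held for 4.96% of 9363 genes outside the list and the members, and for 5 of the list's own 10 markers. Gnaq matched in 2 stages, Gna13 and Rgs1 in 1, and Gnai2 and Rgs2 in 0. Gng11, Rgs18 and Rgs10 also followed each other over the arrays, so their matches are not separate observations. By the summed signal of the markers, in which MK6 replicate 1 is highest, Gnaz, Gng11, Rgs18 and Rgs10 each matched in 3 of 4 stages. Gnaq also matched in 3, Rgs1 in 2, Gna13 and Rgs2 in 1 and Gnai2 in 0. Of the genes outside the list and the members, 30.9% matched in 3 or more. For Rgs1, the highest array matched that of the monocyte and macrophage markers in 4 of 4 stages. The same held for 8.13% of 9359 genes and for 5 of the 14 markers. Rgs2 matched in 3 stages, Gnaq in 3, Gnai2 in 2, and Gna13, Gnaz, Gng11, Rgs18 and Rgs10 in 1 each. By the summed signal of these markers, which is highest on the same arrays, 35.2% of the other genes matched in 3 or more stages. Between MKP and MK6, where 5.7% of all genes were called, 7 of the 12 neutrophil and granulocyte markers fell and none rose, with all 12 lower and a median of -2.64. Of the 14 monocyte and macrophage markers 3 rose and 3 fell, and of the 10 megakaryocyte markers 2 rose and none fell. The mean log2 signal of the neutrophil and granulocyte markers was 10.34 on MK6 replicate 2 and 8.20 and 7.83 on replicates 1 and 3. The part of these other cells in the members' differences was not tested.

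**Figure D4:**
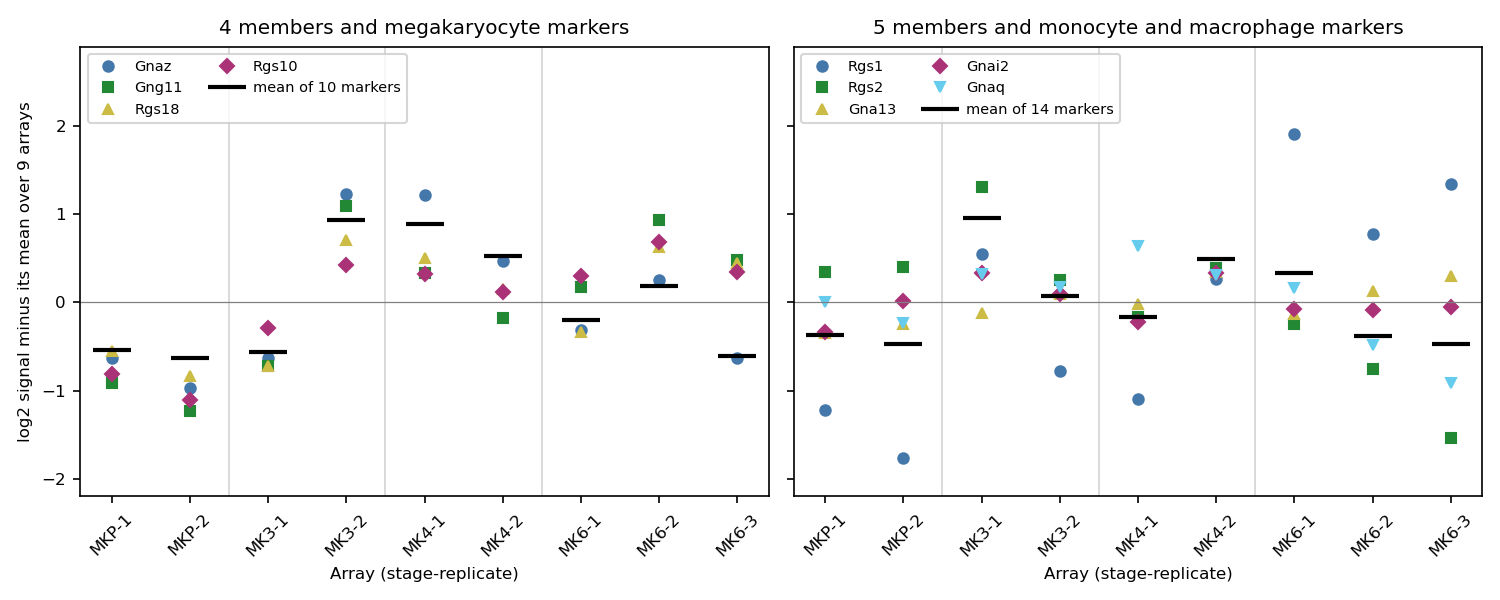
Log2 signal on each array minus the gene's mean over the 9 arrays, for Gnaz, Gng11, Rgs18 and Rgs10 with the mean of 10 megakaryocyte markers (left) and for Rgs1, Rgs2, Gna13, Gnai2 and Gnaq with the mean of 14 monocyte and macrophage markers (right); points are genes and bars are marker means. The 4 genes on the left are higher on MK3 replicate 2 than on replicate 1, as are their markers, and Rgs1 and Rgs2 are lower there.

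Gng11, Rgs18 and Rgs10 followed each other over the arrays, as a description with 9 arrays that share their stages: Pearson's r was 0.94 for Gng11 with Rgs10, 0.93 for Gng11 with Rgs18 and 0.85 for Rgs18 with Rgs10. Gnaz was nearer Rgs18 (0.77) than Gng11 (0.70) or Rgs10 (0.65). The genes most like Rgs1 over the 9 arrays were Ppp2r5b (r = 0.98), Niban2 (0.98) and Ctsk (0.98), the last of which encodes cathepsin K. Between MKP and MK6, Ppp2r5b gave 0.73 (limma, adjusted p = 0.22), and Niban2 rose by 1.74 (limma, adjusted p = 0.0268) and Ctsk by 2.41 (limma, adjusted p = 0.0190). The calls of Niban2 and Ctsk ended in 6 and 5 of 24 alternatives. These genes were picked for likeness to Rgs1 on the same arrays, so their rises follow from that choice and lend no support to that of Rgs1. The genes most like Rgs2 were Anxa3 (0.98), Gpsm3 (0.98) and Lsp1 (0.98). Picked in the same way, they gave -0.84, -0.87 and -1.75 between MKP and MK6, and none was called (limma, adjusted p = 0.14, 0.0924 and 0.0763). The genes most like Gnaz, which was chosen for this after its values were seen, were F2rl2, Gp1bb and Gata1, at 0.99, 0.98 and 0.97. F2rl2 encodes a thrombin receptor, Gp1bb a chain of the von Willebrand factor receptor and Gata1 a transcription factor of the lineage. The genes most like Gng11 were Gypc, Syf2 and Rgs10. For Rgs18 they were Col18a1, Tmem40 and Unc119, and for Rgs10 they were Syf2, Zfand5 and Rap2a. Those of Gna13, Gnaq and Gnai2 are not listed here.

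Of 94 other genes of the pathway tested, 4 were called between MKP and MK6, 3 higher and 1 lower, which is 4.26% and near the 5.7% of all genes. Of 9 other alpha subunit genes tested, none passed, and the median difference was 0.35. Gnao1 gave 0.83 and Gna15, a Gq-family subunit of blood cells, gave -0.81 (limma, adjusted p = 0.30 and 0.0846). Gnao1 exceeded the filter on only 4 of the 9 arrays, so its difference is not well measured. Its signal was 40.1 and 23.4 at MKP and 118, 35.0 and 67.6 at MK6. Gna14, Gnai1 and Gnat2 exceeded the filter on only 4, 2 and 5 arrays, so the median of this list is not well measured either. Among 10 beta and gamma subunit genes, with a median of 0.0044, only Gnb5 was called. Gnb5, the beta subunit that pairs with R7-family RGS proteins, gave 65.1 and 81.7 at MKP, 116 and 90.0 at MK3, 149 and 120 at MK4, and 135, 217 and 167 at MK6. All its MK6 arrays lay above its MKP arrays, and it rose by 1.07 ± 0.27 (SE; limma, adjusted p = 0.0419).

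Of 8 other Rgs genes, with a median of 0.49, none rose and Rgs19 fell. Rgs19, also called GAIP, acts on Gi-family subunits, and its signal was 377 and 398 at MKP, 360 and 328 at MK3, 229 and 235 at MK4, and 169, 220 and 223 at MK6. No MK4 or MK6 array reached the MKP or MK3 arrays. Rgs19 fell by 0.89 ± 0.21 on the log2 scale between MKP and MK6 (limma, adjusted p = 0.0381). The mean over its probe sets gave -0.67 and was not called (limma, adjusted p = 0.0826).

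Of 16 platelet receptor genes, with a median of 0.38, only Ptger2 was called. Ptger2, a Gs-coupled receptor for prostaglandin E2, gave 92.9 and 98.4 at MKP, 112 and 103 at MK3, 210 and 208 at MK4, and 439, 195 and 282 at MK6, and rose by 1.46 ± 0.30 (SE; limma, adjusted p = 0.0202). Its MK4 and MK6 arrays lay above all MKP and MK3 arrays. Of 12 effectors of Gi and of beta-gamma, with a median of 0.26, only the adenylyl cyclase gene Adcy3 was called, at 120 and 125 on MKP, 232 and 235 on MK3, 157 and 175 on MK4, and 257, 209 and 304 on MK6. Adcy3 rose by 0.97 ± 0.23 (SE; limma, adjusted p = 0.0328). The mean over its probe sets gave 0.58 and was not called (limma, adjusted p = 0.23).

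None of 17 Gq effectors, 12 G12/13 effectors or 10 receptor kinases, arrestins and G protein chaperones was called. Their median differences were 0.53, 0.12 and -0.24, beside 0.13 over all genes tested. Values were 1.08 for Prkcq, a protein kinase C, and 0.90 for the calcium channel Trpc6 (limma, adjusted p = 0.22 and 0.29). Trpc6 exceeded the filter on only 4 of the 9 arrays, with 25.7 and 15.3 at MKP, so its difference is not well measured. The RhoA exchange factor Arhgef12 gave 1.14 (limma, adjusted p = 0.0596) and the non-muscle myosin Myh9 gave 0.96. The receptor kinase Grk6 gave -1.25 and Gpsm3, which binds Gi alpha subunits, gave -0.87 (limma, adjusted p = 0.15 and 0.0924). The Grk6 signal was 280 and 303 at MKP and 40.1, 233 and 141 at MK6, with MK6 replicate 1 under the filter. The calls of Gnb5, Rgs19, Adcy3 and Ptger2 ended in 15, 13, 12 and 6 of 24 alternatives.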

How the data were processed

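Signals of 9 MOE430A arrays were taken from 1 deposited value table, in which the authors' values are linear intensities from MAS5, per the submitters' processing notes (version not given in the sources used here). Array trimmed means differ as deposited, so each array was scaled to a common trimmed mean (2% off each end, 161). Values became log2(scaled signal + 15.17), the 20th percentile of all scaled values. Of 22690 probe sets (64 controls), 20380 had 1 gene symbol in the platform annotation, 691 several and 1555 none; 20351 of those symbols matched RefSeq. A gene was its single-symbol probe set with the highest mean, and it was tested where 2 or more arrays exceeded 46.73, the 40th percentile. limma 3.58.1 in R 4.3.3 (1 mean per stage, all 9 arrays, intensity trend) gave the tests, with Benjamini-Hochberg adjustment over 9382 genes within each comparison, or over 14516 probe sets; 0.05 was the threshold. The 5 residual degrees of freedom limit the precision. The script was tested on simulated data. Replicates were numbered in accession order within a stage, as a name only.

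All 10 members were named. From each pathway list, the genes called between MK6 and MKP were named, or else those with the largest difference. For Rgs1 and Rgs2, the 3 genes with the highest Pearson correlation were named. Those of Gnaz, Gng11, Rgs18 and Rgs10 were added after the values were seen. Members and lists were chosen with earlier results of these data known. Alternatives covered the pseudocount, filter, scaling, probe set rule, variance model, arrays in the fit, arrays left out and the beta-actin ratio.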

Additional observations from a re-analysis of the deposited data

How the results depend on the processing

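Over 24 other settings and 1 chosen after seeing the data (MK6 replicates 1 and 3 left out, the arrays with the highest beta-actin ratios), 1032 of 1184 values kept their direction and their side of the threshold, or moved within 1.5 times for counts. That number takes a result as kept when it stayed uncalled with its sign, so it does not measure how well calls held. The call between MKP and MK6 held in 21 of 25 alternatives for Rgs1 and in 19 of 25 for Rgs10. It held in 9 of 24 for Gnb5, 9 of 24 for Itga2b and 11 of 24 for Rgs19. Between MKP and MK6, 2 members were called in the report, beside 5.7% of all genes. The number was 1 with a common median and 1 with no scaling, beside 4.04% and 2.14% of all genes. Array weights gave 6, beside 27.5%, and the beta-actin covariate gave 0, beside 0%. Both calls ended when either MKP array, or MK6 replicates 1 and 3, were left out, which leaves a stage with 1 array. The F test over the 3 steps, with 1 member in the report, gave 0 with no filter and 0 with quantile normalization. It gave 2 with each probe set by itself, 0 with no intensity trend and 0 with the covariate. Array weights gave 7, beside 18.5% of all genes. The F test gave 0 without MK6 replicate 1 and 0 without MK6 replicate 3. Fits with a lone array in a stage moved its count up and down. Its share of all genes was not taken in the settings other than array weights, so those counts are not a result about the members. Between MK4 and MK6, array weights gave 3 (5.52% of all genes). Between MKP and MK6 the sign turned for Gna13 probe set 1460317_s_at (-0.20 with no scaling, -0.023 with array weights), for Gna13 (-0.035 as the mean of probe sets), for Gnai2 (-0.039 with a common median, -0.27 with no scaling, -0.33 as the mean of probe sets, -0.083 without MKP replicate 1) and for Gnaq (0.28 without MK6 replicates 2 and 3, 0.26 with the covariate). The causes were not tested. The covariate left 0 of 9382 genes called, and MKP has 2 arrays, so leaving 1 out leaves a lone array that is assumed to vary like the other stages. No paired analysis was possible because the labels give the stages no shared replicate numbers. Signals near the filter, such as those of Gnaq at MK6, have little over background to measure.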
